A study of Mus musculus with 6 samples.

Results

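The tubulin genes and stathmin were followed in mouse liver 1 day after the bile duct was tied off. The 9 genes were listed by name, 4 alpha-tubulins (Tuba1a, Tuba1b, Tuba1c and Tuba4a), 3 beta-tubulins (Tubb2a, Tubb4b and Tubb5), gamma-tubulin (Tubg1) and stathmin (Stmn1), and their probe sets were found through the gene symbols of the array's annotation, current or older. Of the 9 genes, 8 had a probe set that carries their symbol alone, out of 8251 such genes on the array. Tuba1b was named only on a probe set annotated to 4 symbols, with Tuba1a and Tuba1c among them, and the values of that probe set are reported without being assigned to a gene. The 8 genes had 13 probe sets, and 11 of these, with at least 1 for each gene, passed the filter on low signals. Liver RNA came from 6 male wild-type C57BL/6J mice, 8 to 10 weeks old, with 1 mouse on each Affymetrix U74Av2 array. In 3 mice the common bile duct was ligated and cut under methoxyflurane anaesthesia (bile duct ligation, BDL), and the titles number them 1, 12 and 3. The other 3 mice, numbered 1, 2 and 3, had the same opening of the abdomen and anaesthesia without ligation (sham), so every group carried the surgery itself. The comparison asks how these transcripts differed in the obstructed liver at that time.

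Alpha- and beta-tubulin pair into dimers that assemble end to end into microtubules, the hollow filaments along which vesicles, organelles and mitotic chromosomes are moved. Gamma-tubulin sits in ring complexes at the centrosome and starts new microtubules, and stathmin binds free tubulin dimers and favours disassembly. In hepatocytes, microtubules carry secreted plasma proteins toward the blood and canalicular transporters toward the bile face of the cell. Tubulin messages are also known to be degraded when free dimers are abundant, and stathmin is known for its high level in dividing cells.

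The tubulin genes on the array differ in their start regions, which are shown for 5 genes. The promoter sequences used here held 7 of the 9 genes. Tubg1 and Stmn1 had no entry there, so their start regions were not examined. The sequences are the 120 bases just before the transcript start, 5′ to 3′ on the gene's strand, from RefSeq's GRCm38.p6 mouse genome. Capitals mark matches, on either strand, to 4 promoter motifs. The first was the CCAAT box, searched as its letters stand. The GC box, a site of Sp1-type factors, was searched as GGGCGG. The TATA box, which positions the start of transcription in some genes, was searched as TATAAA. The CHR element, known from genes of the cell cycle, was searched as TTTGAA.
Tuba1a, chr15:98953502-98953621, minus strand: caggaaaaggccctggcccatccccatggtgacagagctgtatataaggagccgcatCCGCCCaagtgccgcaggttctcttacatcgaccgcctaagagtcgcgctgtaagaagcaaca
Tuba4a, chr1:75219295-75219414, minus strand: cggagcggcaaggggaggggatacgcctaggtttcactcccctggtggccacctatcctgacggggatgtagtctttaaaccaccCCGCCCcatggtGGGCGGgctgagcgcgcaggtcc
Tubb2a, chr13:34078009-34078128, minus strand: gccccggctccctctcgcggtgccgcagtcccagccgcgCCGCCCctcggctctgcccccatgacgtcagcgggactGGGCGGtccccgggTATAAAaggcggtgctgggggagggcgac
Tubb4b, chr2:25224703-25224822, minus strand: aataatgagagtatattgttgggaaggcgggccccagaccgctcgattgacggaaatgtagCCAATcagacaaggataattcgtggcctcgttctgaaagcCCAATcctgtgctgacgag
Tubb5, chr17:35838302-35838421, minus strand: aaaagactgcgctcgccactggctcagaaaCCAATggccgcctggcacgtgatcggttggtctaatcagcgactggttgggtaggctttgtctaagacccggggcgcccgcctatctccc
The window of Tubb5 held 1 CCAAT box and that of Tubb4b held 2, against 21.3% of 32841 mouse promoter windows of that length with at least 1. The GC box occurred once in Tuba1a and Tuba1b and 2 times each in Tuba4a and Tubb2a, and 26.5% of all windows held it. Tubb2a alone among the 7 had a TATA box, a motif in 6.34% of windows, and none of the 7 had the CHR motif, which 7.12% of windows held. The Tuba1c window held none of the 4 motifs. GC content was between 50% in Tubb4b and 75.8% in Tubb2a, with a median of 54.2% over all windows. A match is a description of these letters only.

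Signals of the arrays were comparable in scale, and 1 array differed at the low end. The 2% trimmed mean of all signals was 1501 on each array, and medians ran from 431 to 627. Between 24.4% and 31.3% of probe sets on each of 5 arrays did not exceed 152.7, the 25th percentile over all arrays, and 12.5% did not on sham replicate 1. Signals lower than that floor were set to it before logs were taken. All 16 hepatocyte marker genes on the array were above the floor on at least 3 arrays, with albumin (Alb) signals of 125084 to 199675. The number of arrays limits the precision throughout.

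No tubulin or stathmin probe set passed the adjusted threshold, and the largest differences were in both directions. With limma, 0 of the 11 tested probe sets had an adjusted p under 0.05, as did 0 of 9542 probe sets over the array (0%). At an unadjusted p under 0.05, 4 of the 11 were higher in BDL, against 3.4% of all tested probe sets, and 1 was lower, against 2.39%. The balance over the whole array, 324 higher and 228 lower, turned to 380 and 772 without sham replicate 3 and to 284 and 329 with a floor at the 10th percentile, where the tubulin and stathmin probe sets gave 3 higher and 2 lower, and 2 higher and 1 lower, in turn. The 4 were probe sets of Tuba1a, Tubb2a, Tubb5 and Stmn1, and the lower one was Tubg1. All BDL signals lay above all sham signals for 3 of the 11, against 6.32% of all probe sets, and below them for another 3, against 4.32%. A positive difference was found for 8 of the 11, against 48.8% of all probe sets. With 1 probe set a gene, the median log2 difference was 0.38 over the 8 genes and -0.01 over 6897 tested genes. Each gene was represented there by its probe set of highest mean log2 signal. For Tubb2a that set differed by 1.54 and its other set by -1.34. Several of the 11 probe sets can share target RNAs, so they are not separate measurements. The genes were also listed with earlier results of these data known. The shares and medians set side by side here therefore describe the list and do not test it.

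**Figure D1:**
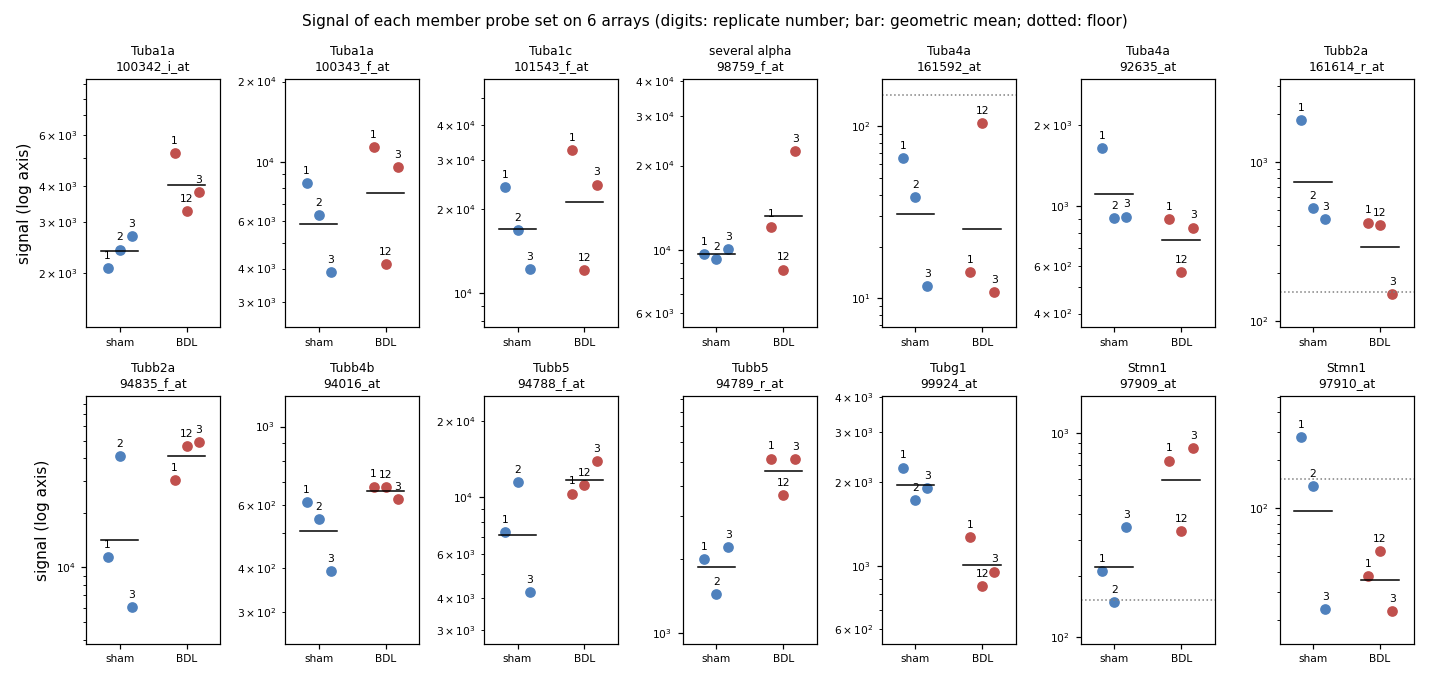
Signal of every tubulin and stathmin probe set on a log axis, with sham arrays in blue and BDL arrays in red; digits are replicate numbers, bars are geometric means and the dotted line is the floor of 152.7. Groups do not overlap for 100342_i_at of Tuba1a, 92635_at of Tuba4a, 161614_r_at of Tubb2a, 94016_at of Tubb4b, 94789_r_at of Tubb5 and 99924_at of Tubg1 among the tested probe sets.

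Some probe set names carry a letter that bears on what they report. On Affymetrix arrays of this design, f marks probes shared by members of a sequence family, r marks sets for which some probe selection rules were relaxed, and i marks sets with fewer unique probes than usual. The tubulins are a family of closely alike sequences, so an f signal can include RNA of other tubulins. Of the 14 probe sets described here, counting the one with 4 symbols, those of Tuba1c and that one are f sets, and Tuba1a, Tubb2a and Tubb5 each have 1 f set beside another kind. For Tuba1a, Tubb2a and Tubb5 the f set had the higher mean signal. It therefore stood for the gene wherever 1 probe set a gene was used, as in the median and the mean profile.

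Among the alpha-tubulins, Tuba1a had 2 probe sets that separated the groups differently. Tuba1a encodes an alpha-tubulin abundant in neurons and present in many other cells. Signals are given in the order 1, 12, 3 for BDL and 1, 2, 3 for sham throughout. Set 100342_i_at read 5189.7, 3277 and 3805 in BDL and 2086, 2413 and 2689 in sham. Every BDL mouse was above every sham mouse, by 1.68-fold in geometric mean (log2 difference 0.75, SE 0.30, 95% interval 0.06 to 1.44, limma adjusted p = 0.832). The other set, 100343_f_at, read 11349, 4168 and 9552 in BDL and 8336, 6335 and 3871 in sham. These groups overlapped because BDL replicate 12 was the second lowest of the 6, and the log2 difference was 0.38 (SE 0.46, limma adjusted p = 0.901), with values from 0.08 (sham replicate 3 left out) to 0.82 (BDL replicate 12 left out).

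Tuba1c, an alpha-tubulin of general use, followed the f set of Tuba1a array by array. Its only probe set, 101543_f_at, read 32481, 12134 and 24526 in BDL and 24099.6, 16825 and 12262 in sham. BDL replicate 12 was here the lowest of all 6 arrays, and the log2 difference was 0.32 (SE 0.43, limma adjusted p = 0.910), which dropping BDL replicate 1 took to 0.02 and dropping BDL replicate 12 to 0.73. The log2 signals of these f sets, each minus its own mean, were 0.10 apart as a root mean square over the 6 arrays, the closest of all 66 pairs. The set with 4 alpha-tubulin symbols, 98759_f_at, read 12142, 8550.3 and 22527 in BDL and 9720.3, 9286 and 10085 in sham. Sham mice were close to each other there and BDL mice lay on both sides of them, with a log2 difference of 0.45 (SE 0.38), or 0.07 when BDL replicate 3 was dropped and 0.77 when BDL replicate 12 was.

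Tuba4a, the alpha-tubulin whose gene encodes no final tyrosine, ran the other way. Its set 92635_at read 895, 570.5 and 835 in BDL and 1650.4, 905 and 917 in sham. All BDL mice were below all sham mice, but the highest BDL value and the lowest sham value were nearly equal. The log2 difference was -0.56 (SE 0.35, limma adjusted p = 0.832); dropping sham replicate 1 gave -0.28 and dropping BDL replicate 12 gave -0.36. The other Tuba4a set, 161592_at, was under the floor on all 6 arrays and was not tested.

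**Figure D2:**
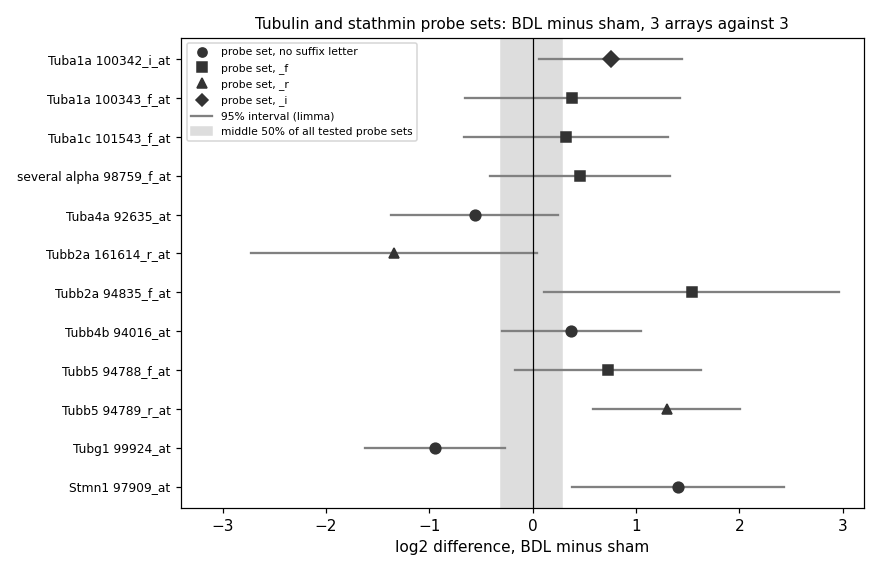
Log2 difference, BDL minus sham, of each tested probe set with its 95% interval from limma; the marker shape gives the letter in the probe set name, and the grey band runs from the lower to the upper quartile of all 9542 tested probe sets, -0.30 to 0.28. Tubb5 94789_r_at (1.30), Stmn1 (1.40) and Tubg1 (-0.95) lie outside the band with intervals that leave out 0, as do Tuba1a 100342_i_at and Tubb2a 94835_f_at.

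Among the beta-tubulins, Tubb5 had the lowest p of all tubulin and stathmin probe sets. Tubb5 is the beta-tubulin expressed most widely across tissues. Its set 94789_r_at read 5155, 3660.5 and 5109 in BDL and 2000.4, 1447 and 2246 in sham. The lowest BDL signal was well above the highest sham signal, the geometric means were 2.46-fold apart (log2 difference 1.30, SE 0.31, 95% interval 0.59 to 2.01), and the probe set ranked 38 of 9542 by p with a limma adjusted p of 0.667. Whichever array was dropped, the difference stayed between 1.11 and 1.46. The other set, 94788_f_at, read 10355, 11196 and 13964 in BDL and 7291, 11502 and 4237 in sham. Sham replicate 2 lay among the BDL arrays here, and the log2 difference was 0.73 (SE 0.40, limma adjusted p = 0.832), or 0.36 without sham replicate 3.

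Tubb2a, a beta-tubulin abundant in nervous tissue, had probe sets of opposite direction. The set 94835_f_at read 30327, 46554 and 49010.3 in BDL and 11433, 40897 and 6063 in sham. The BDL mice were high together, whereas the sham mice ran from 6063 to 40897 with replicate 2 at the BDL level. The log2 difference was 1.54 (SE 0.63, limma adjusted p = 0.832); it was 0.92 with sham replicate 3 dropped, and 2.30 with the high sham mouse dropped instead. The set 161614_r_at read 418, 402 and 148 in BDL and 1841, 518 and 437 in sham. All BDL mice were below all sham mice, with a log2 difference of -1.34 (SE 0.61, limma adjusted p = 0.832) that came to -0.69 when sham replicate 1 was dropped and to -0.87 when BDL replicate 3, an array under the floor, was dropped. Of all 66 pairs of probe sets, these 2 sets of Tubb2a had the most unlike profiles, 1.91 apart as a root mean square.

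Tubb4b, a beta-tubulin of many tissues that is also used in cilia, had 1 probe set, 94016_at. It read 678, 675 and 623 in BDL and 612.5, 548 and 391 in sham. The BDL signals were within a narrow range just above the highest sham signal, and the log2 difference was 0.37 (SE 0.30, 95% interval -0.30 to 1.04, limma adjusted p = 0.852), or 0.18 without sham replicate 3.

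Gamma-tubulin and stathmin had the next lowest p after Tubb5. Tubg1, the gamma-tubulin of centrosomal ring complexes, read 1269, 849 and 959 in BDL and 2249, 1722 and 1905 in sham (99924_at). Every BDL mouse was below every sham mouse, with signals 1.93-fold lower in geometric mean (log2 difference -0.95, SE 0.30, 95% interval -1.62 to -0.27, limma adjusted p = 0.832). Whichever array was dropped, the difference lay between -1.11 and -0.82. Stmn1 read 734, 332 and 847 in BDL and 211, 149 and 346 in sham on 97909_at. BDL replicate 12 lay just under sham replicate 3, so the groups overlapped, and the difference was 1.40 on the log2 scale (SE 0.45, 95% interval 0.38 to 2.43, limma adjusted p = 0.832), or 2.65-fold; sham replicate 2 was under the floor, and a floor at the 40th percentile gave 0.82. Its other set, 97910_at, was under the floor on 5 of the 6 arrays and was not tested; the exception was sham replicate 1, at 280.4.

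**Figure D3:**
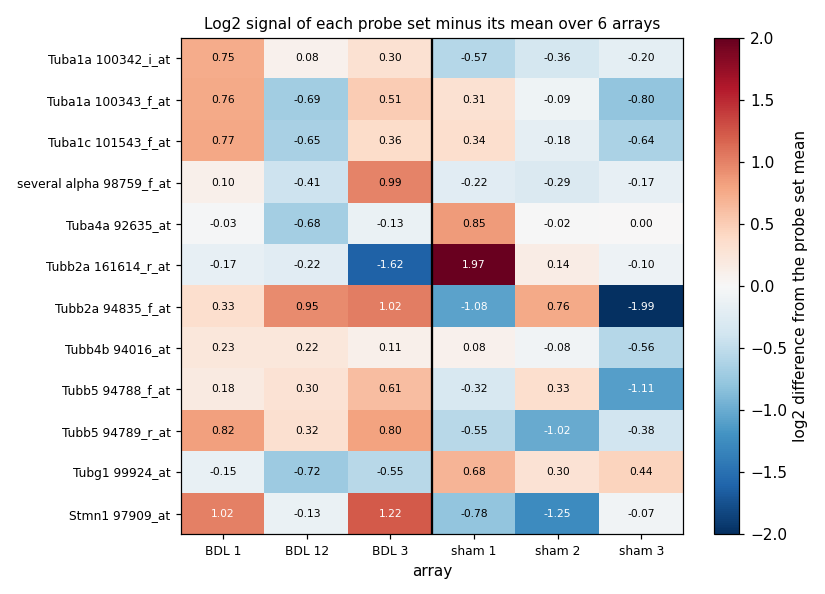
Log2 signal of each tested probe set minus its own mean over the 6 arrays, in colour and digits, with BDL arrays left of the line and sham arrays right of it. The f sets of Tuba1a and Tuba1c share a low BDL replicate 12 (-0.69 and -0.65), the f sets of Tubb2a and Tubb5 share a raised sham replicate 2 (0.76 and 0.33) and a low sham replicate 3, and Tubg1 is below 0 on all BDL arrays and above 0 on all sham arrays.

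The probe sets fell into likenesses that ran across gene names. After the Tuba1a and Tuba1c pair, the closest profiles were those of Tuba4a and Tubg1 (0.29 apart) and of Tubb5 94789_r_at and Stmn1 (0.32 apart). The 2 Tuba1a sets were 0.55 apart and the 2 Tubb5 sets 0.69 apart, whereas the f sets of Tubb2a and Tubb5, different genes, were 0.60 apart. Averaged over the 8 genes, the centred log2 signal came to 0.39, -0.18 and 0.39 for the BDL mice and to 0.01, -0.03 and -0.59 for the sham mice. BDL replicate 12 was thus below 2 of the sham arrays, and sham replicate 3 was lowest. The median difference of 0.38 became 0.13 with that sham array dropped and 0.74 with BDL replicate 12 dropped.

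The genes whose profiles over the 6 arrays were most like the mean profile of the 8 genes, among 6889 others, were Cers2, Diaph2, Cstb, Pgd and Slc23a3, at root mean square distances of 0.10 to 0.12. Cers2 makes ceramides with very long acyl chains, Diaph2 is a formin that builds actin filaments, Cstb inhibits cathepsins and Pgd is an enzyme of the pentose phosphate pathway. Their log2 differences were 0.20 to 0.53 with overlapping groups. For Stmn1, the closest were Ly6e and Rsad2, both known as interferon-induced genes, and the adenylate kinase Ak4, at distances of 0.20, 0.21 and 0.27. Ly6e read 39782, 16772 and 45026 in BDL and 10281, 9948 and 14032 in sham, higher in each BDL mouse than in any sham mouse, with a log2 difference of 1.46 (SE 0.42, limma adjusted p = 0.827). Both Stmn1 and these 3 genes were lower on BDL replicate 12 than on the other BDL arrays. The 3 were chosen for profiles like that of Stmn1 on these same arrays. That likeness, and the direction of their differences, follows from the choice.

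Of the other tubulins, 4 of 11 listed were on the array by 1 symbol, and all 4 had positive differences. Tubb3, the beta-tubulin used as a neuronal marker, differed by 1.12 (SE 0.55) on a set of the f kind that read 7315, 16312 and 16839.8 in BDL and 4493, 12989 and 3366 in sham, with sham replicate 2 again among the BDL arrays. Tubg2, the second gamma-tubulin, differed by 0.71 (SE 0.46), the opposite direction to Tubg1, also on an f set. It read 62.6, 284 and 534 in BDL and 157, 220.4 and 119.9 in sham, with groups overlapping. The signals of BDL replicate 1 and sham replicate 3 were under the floor. Tuba8 differed by 0.11 (SE 0.31). The 3 other stathmins had negative differences, with overlapping groups; Stmn3 differed by -0.85 (SE 0.41), Stmn2 by -0.46 (SE 0.33) and Stmn4 by -0.06 (SE 0.31). At an unadjusted p under 0.05 limma called 0 of these 7 genes, and 0 after adjustment.

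Genes that fold tubulin had a median near that of the tubulin and stathmin genes, but a different profile over the arrays. The chaperonin CCT and prefoldin fold newly made tubulin, and the tubulin cofactors join it into dimers. Of 22 genes listed, 19 were on the array and 18 tested, with 13 positive differences and a median of 0.38. Their mean centred log2 signals were 0.13, 0.13 and 0.16 in BDL and -0.42, 0.01 and -0.01 in sham. Sham replicate 1 was thus lowest, whereas sham replicate 3 was lowest in the average over the tubulin and stathmin genes. An unadjusted p under 0.05 was reached by 2 of them upward and 1 downward, against 3.4% and 2.39% of all tested probe sets, and limma's adjusted threshold by 0. The groups were apart for 4 higher genes and 2 lower ones, against 6.32% and 4.32% of all tested probe sets. Vbp1, a prefoldin subunit, read 2363, 2049 and 2498 in BDL and 746, 712 and 1844 in sham, a difference of 1.21 (SE 0.41, limma adjusted p = 0.832). Tbce, a cofactor that acts on alpha-tubulin, differed by 0.80 (SE 0.31) with the groups apart. Pfdn5, another prefoldin subunit, differed by -0.87 (SE 0.32), with 457 to 496 in BDL and 716 to 1229 in sham. The summed signal of the 19 genes was 43309 to 48780 in BDL and 32988 to 40531 in sham.

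**Figure D4:**
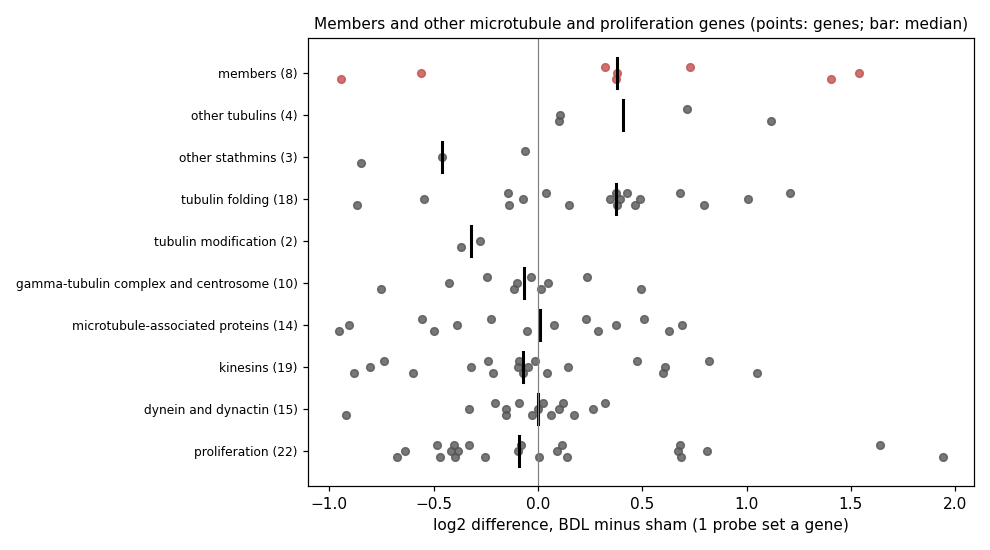
Log2 difference, BDL minus sham, of single genes in the tubulin and stathmin set (red) and in other lists of microtubule and proliferation genes (grey), 1 probe set a gene, with bars at the medians and the number of tested genes in brackets. Medians are 0.38 for the tubulin and stathmin genes and for tubulin folding, and between -0.09 and 0.01 for centrosome, microtubule-associated, kinesin, dynein and proliferation genes.

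The lists of centrosome, microtubule-associated, kinesin and dynein genes were centred near 0. The median difference was -0.07 over 10 genes of the gamma-tubulin complex and centrosome, 0.01 over 14 microtubule-associated proteins, -0.07 over 19 kinesins and 0.0004 over 15 dynein and dynactin genes. With limma, 0 of these genes passed the adjusted threshold; an unadjusted p under 0.05 was reached by 1 microtubule-associated protein, downward, by 2 kinesins upward and 1, Kif9, downward, and by 0 centrosome and 0 dynein genes. Kifc3, a kinesin that moves toward microtubule minus ends, read 441, 212 and 427 in BDL and 172, 143 and 170.2 in sham, higher in every BDL mouse, by 1.05 (SE 0.35). Kif20a, a kinesin of cell division, was higher by 0.82 (SE 0.32), with the groups apart. Kif9 read 198, 339.6 and 331 in sham and was under the floor in every BDL mouse, so it passed the filter through the sham group alone and had to be lower; against the floor it was at least 1.84-fold lower. Cetn3, a centrosomal centrin, was higher by 0.49 (SE 0.28), at 3458 to 4306 in BDL and 2396 to 3014 in sham, on an f set. Plk4, the kinase that starts centriole copying, and Tubgcp4, a subunit of the gamma-tubulin ring, differed by -0.75 (SE 0.43) and -0.43 (SE 0.42), and the groups overlapped for both. Dcx, a microtubule-binding protein of migrating neurons, had a difference of -0.91 (SE 0.39), with 2 of its BDL signals under the floor. Ckap5, which speeds microtubule growth, had 0.51 (SE 0.32) and Clip1, which binds growing ends, -0.50 (SE 0.32). Groups overlapped for Dcx, Ckap5 and Clip1. Actr1a, the filament of dynactin, had -0.92 (SE 0.53) and Pafah1b1, a dynein regulator, -0.33 (SE 0.35), also with overlap, whereas Ndel1, a partner of Pafah1b1, was 0.26 higher (SE 0.27) with the groups apart. Of the tubulin-modifying enzymes, whose median was -0.32, only the deacetylases Sirt2 and Hdac6 were tested, at -0.37 (SE 0.29) and -0.28 (SE 0.33).

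Proliferation genes were listed because of stathmin's place in dividing cells. Of 22 tested, 10 had positive differences, the median was -0.09, and limma called 2 upward at an unadjusted p under 0.05 and 0 after adjustment. Those 2 were Ccnd1, the cyclin of early G1, with a difference of 1.94 (SE 0.51), and Cks1b, a partner of cyclin-dependent kinases, with 1.64 (SE 0.59). Cks1b read 1100.4, 1190.3 and 1034 in BDL and 305, 102 and 959 in sham, so every BDL mouse was above every sham mouse. Among the genes with negative differences, Mki67 had -0.64 (SE 0.39) on an r set, with overlapping groups. Plk1 had -0.40 (SE 0.27) on an f set, with every BDL mouse below every sham mouse. Another 7 listed genes on the array, Top2a, Cdk1, Aurka, Bub1, Birc5, Mcm6 and Hmgb2, did not pass the filter on low signals.

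Markers of other liver cells varied alongside some of these probe sets. In whole liver RNA, more cells of a type and more RNA per cell cannot be told apart. Of 15 tested macrophage markers, 12 had positive differences, with a median of 0.85, and the summed signal of all 17 on the array was 22303 to 44433 in BDL and 10655 to 18713 in sham. Their mean centred log2 signals were 0.35, -0.0045 and 0.67 in BDL against 0.03, -0.20 and -0.83 in sham, so BDL replicate 12 was near the sham arrays and sham replicate 3 was lowest, as in the average over the tubulin and stathmin genes. A lowest sham replicate 3 was not particular to macrophage markers. It was also found for the lymphocyte, stellate cell and proliferation lists, at -0.66, -0.59 and -0.49. With limma, 3 macrophage markers were higher at an unadjusted p under 0.05 and 0 after adjustment. Cd14, the lipopolysaccharide co-receptor, read 1873, 29692 and 15816 in BDL and 717, 4568 and 1176 in sham, so the groups overlapped, and it made up most of the summed signal of BDL replicate 12. Ctss, a lysosomal cathepsin of macrophages, read 2198, 2332 and 2258 in BDL and 1399, 1554 and 791 in sham. Of 12 endothelial markers, 10 had positive differences, with a median of 0.33, and their mean centred log2 signals came to 0.45, 0.14 and 0.04 for BDL and to -0.48, 0.34 and -0.49 for sham. The raised sham replicate 2 and low sham replicates 1 and 3 of that list were also seen in the f sets of Tubb2a, Tubb3 and Tubb5, and in Cdh5, the endothelial cadherin, at 228, 888 and 216 in sham and 721 to 885 in BDL. Genes outside the endothelial list had that pattern too, such as the haemoglobin gene Hba-a1 at 5902, 18423 and 6473 in sham. The endothelial gene Emcn, at 482, 282 and 51.4 in sham, did not have it. Summed endothelial signals were 9361 to 11664.5 in BDL and 5789 to 10635 in sham. Fcgr2b, an Fc receptor of liver sinusoidal endothelium, was 1.29 higher (SE 0.33) with the groups apart. Of the erythroid list, 5 of 7 tested genes had negative differences. Car1, a red cell carbonic anhydrase, had -0.84 (SE 0.39) and the haemoglobin gene Hba-a1 0.88 (SE 0.45), both with overlapping groups. Signals of Car1 were under the floor on 2 BDL arrays and 1 sham array. The part of these cells in the tubulin and stathmin differences was not tested.

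The remaining marker lists had smaller or negative medians. Medians were 0.09 for 16 hepatocyte genes, 0.14 for 6 cholangiocyte genes, -0.09 for 15 stellate cell and fibroblast genes, -0.11 for 12 neutrophil genes, -0.33 for 7 erythroid genes and -0.52 for 6 lymphocyte genes. Anxa3, an annexin of bile duct cells, read 381, 404.5 and 389 in BDL and 137, 72.9 and 63 in sham. The sham values were all under the floor, so Anxa3 passed the filter through the BDL group alone and had to be higher. The cholangiocyte list had 3 of 6 positive differences, with Cd24a at 0.63 (SE 0.40) but Muc1 at -0.50 (SE 0.44). The stellate cell and fibroblast list had 7 of 15 positive differences. Acta2, the smooth muscle actin of activated stellate cells, read 486, 209 and 473 in BDL and 192, 73.3 and 23.6 in sham, under the floor on the last 2, and Sparc, a matrix glycoprotein, had a difference of 0.92 (SE 0.34), whereas Des, the muscle-type filament of stellate cells, had -0.89 (SE 0.52). The neutrophil list had 5 of 12 positive differences, with Chil3 at 1.41 (SE 0.48) and S100a9 at 1.49 (SE 0.59), but Elane, the neutrophil elastase, at -0.74 (SE 0.39) and Camp, an antimicrobial peptide, at -0.60 (SE 0.33). In the hepatocyte list, with 9 of 16 positive, Ttr had -1.25 (SE 0.36) and Cyp3a11 0.56 (SE 0.27). Krt7 and Epcam, defining markers of bile duct cells, and the T cell genes Cd3d, Cd3e, Cd8a and Cd8b1 did not pass the filter on low signals. Lymphocyte markers were highest on sham replicate 1, at a mean centred log2 signal of 0.88, the array on which Tuba4a, Tubg1 and the r set of Tubb2a were also highest. This was not particular to lymphocytes. The other stathmins and the proliferation and cholangiocyte lists were also highest there, at 0.64, 0.39 and 0.35. That array also had the smallest share of probe sets not above the floor, 12.5%. The B cell genes Ms4a1 and Cd79a had differences of -0.77 (SE 0.27) and -1.14 (SE 0.54), whereas Ighm, also a B cell gene, had 0.47 (SE 0.47). The lymphocyte list had 2 of 6 positive differences. Summed lymphocyte signals were 3676 to 4143 in BDL and 3127 to 9251 in sham. As a check on RNA integrity, signals of the beta-actin 3′ and 5′ control probe sets stood in a ratio of 1.32 ± 0.0983 (SD, n = 3) for BDL and 1.53 ± 0.00817 for sham. An exact two-sided permutation test gave p = 0.1, its lower limit with 3 mice a group, or 0.8 after adjustment over 8 array measures. The Gapdh ratio was 0.722 ± 0.0282 and 0.719 ± 0.0839 in turn, that of pyruvate carboxylase 2.03 ± 0.735 and 3.16 ± 1.23, and that of the transferrin receptor 2.36 ± 0.641 and 1.27 ± 0.818, so the 4 ratios did not share a direction. Sham replicate 3, where the average over the tubulin and stathmin genes was lowest, had the highest Gapdh and pyruvate carboxylase ratios, 0.813 and 4.57. Its beta-actin and transferrin receptor ratios, 1.52 and 2.22, were not the highest. The share of probe sets not above the floor was largest on that array, 31.3%. The part of RNA integrity and of raised low signals in these differences was not tested.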

How the data were processed

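Liver RNA of 6 mice was hybridised to 6 arrays (20 µg cRNA each). Each deposited value is the intensity of a probe set on a linear scale. The authors used GeneChip 3.1 software and MicroArray Suite 4.0, per the series' design text; their settings and background treatment: not given in the sources used here. Equal trimmed means show that arrays were already scaled, so values were kept. Values under 152.7 (25th percentile) were raised to it, which understates differences of low signals, and log2 was taken. Of 12488 probe sets, 66 controls were left out and 9542 with at least 3 of 6 arrays above the floor were tested, BDL minus sham, with limma 3.58.1 (lmFit and eBayes, R 4.3.3; 4 residual and 4.67 prior degrees of freedom) and Benjamini-Hochberg adjustment over all of them at 0.05. SE and 95% intervals are limma's. The fit was run on simulated data, with changes added only to probe sets well above the floor, to check that the median change was recovered. Low signals, such as those of Stmn1, lay outside that check.

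Gene symbols are those of GEO's annotation of the array, brought up to date through gene identifiers with RefSeq (GRCm38.p6); 10833 probe sets had 1 symbol, 396 several and 1193 none. A gene is represented by its probe set of highest mean log2 signal. Members and 17 gene lists (320 entries, 237 on the array) were chosen with earlier results of these data known. Named were all members, up to 3 genes of lowest p per microtubule list and up to 2 per marker or proliferation list, and the 5 genes (3 for Stmn1) of most similar centred profile; other names were chosen after their values were seen. Alternatives were quantile normalization, equal trimmed means, floors at the 10th and 40th percentiles, an added constant, no floor, a filter set at the 50th percentile or none, eBayes with a trend or robustly, weighted arrays, the mean over a gene's probe sets, each array left out, and the replicate number as a block. Batches: not given in the sources used here. Detection calls were not used here. Nothing says that the mice of a group came from separate litters or cages, so p-values measure the spread between these mice.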

Additional observations from a re-analysis of the deposited data

How the results depend on the processing

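Of 19 alternatives to the main setting, 18 gave values for single probe sets and the mean over a gene's probe sets gave only the median. All 214 values of the 11 tested probe sets and the one with 4 symbols kept their sign, and 0 of them passed the adjusted threshold. The stricter filter left no value for Stmn1 and for 161614_r_at of Tubb2a. The median over the tubulin and stathmin genes was 0.13 to 0.74 with 1 array left out and 0.35 to 0.79 otherwise. Probe sets of these genes at an unadjusted p under 0.05 numbered 5 in the main setting, 3 with the floor at the 10th percentile and 2 to 5 with 1 array left out (2 without BDL replicate 3, 3 without sham replicate 1). Over the whole array this count was 552, against 362 under the stricter filter, 1023 with array weights and 300 to 1152 with 1 array left out, lowest without BDL replicate 3 and highest without sham replicate 3. Probe sets with the groups apart numbered 1015 in the main setting and 1549 to 2832 with 1 array left out, where fewer arrays make separation easier. With no filter, 3 probe sets passed the adjusted threshold, none of them of a tubulin or stathmin gene; the cause was not tested. The numbers 1 and 3 occur in both groups, on arrays of different mice. Whether same-numbered arrays share more than a number is not given, and it was not tested (correlation of deviations 0.21 and 0.25). The numbers 12 and 2 occur in 1 group each. With the number as a replicate block, the differences therefore rested on replicates 1 and 3 alone, without BDL replicate 12 and sham replicate 2. The median was then 0.79. The differences were 1.28 for 94789_r_at of Tubb5, 1.11 for 94788_f_at of Tubb5, 0.87 for 100343_f_at of Tuba1a, 0.72 for Tuba1c and 0.74 for the set with 4 symbols. The block took Tubg1 and 100342_i_at of Tuba1a past an unadjusted p of 0.05 and brought 94788_f_at and 161614_r_at under it, leaving 5. Array weights moved 5 of the differences by over 1.5 times, among them 94835_f_at of Tubb2a to 0.87. The number of arrays and, for Stmn1 and 161614_r_at, signals near the floor limit the precision.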
